A study of Homo sapiens with 6 samples.

Results

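The genes described here are targets and regulators of the transcription factor p53, measured in the RT4 human bladder cancer cell line. Members were 32 named genes, found by matching the gene name of each probe in the array table, and a probe was kept when its detection p-value was under 0.01 on at least 1 of the 6 arrays. By that rule 29 of the 32 genes had a kept probe, with 37 kept probes of 46, out of 16441 genes and 20944 probes kept in all. The study placed 1 sample on 1 Illumina HumanHT-12 version 4 array in each of 6 groups, and asked how RNA levels differ during the blebbishield emergency program, in which remnants of apoptotic cells regroup into living spheres, and between lines of different tumorigenicity. Blebbishields were parental RT4 cells (RT4P) treated with 1 uM cisplatin and 20 mM lithium chloride for 24 h, and held sphere-forming blebbishields together with ones that do not form spheres. Spheres had the same treatment and then 4 h of transformation, after which pure spheres were isolated. The other 4 samples were live cells without treatment. RT4P-BSE2 is a derivative of RT4P that has been taken through the blebbishield program 2 times serially, RT4v6 a derivative of RT4 passaged 6 times in mice, PBSHMS a line made by fusing RT4 blebbishields with human blood mononuclear cells, and RT4P live the parental line. Each group is therefore 1 sample, so that a difference between groups has no replicate check and no p-value is given for it.

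As background, p53 is held low in unstressed cells by MDM2, a ubiquitin ligase whose own gene p53 switches on. DNA damage, such as the crosslinks that cisplatin makes, frees p53 from MDM2, and p53 then binds pairs of short half-sites in or near its target genes, which arrest the cell cycle, repair DNA, change metabolism or drive cell death. Lithium chloride, the other agent, is best known as an inhibitor of the kinase GSK3.

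RefSeq promoter windows of 300 bases, with 250 bases before and 50 after an annotated start, were found for 28 of the 32 members, 39 windows in all. The 4 members RRM2B, GADD45A, TP53INP1 and PHLDA3 had none. The p53 half-site consensus, a palindrome of 10 letters that reads the same on both strands, was found in 6 of the 39 windows, or 15.4%, against 6.63% of all 35116 windows. Those windows belonged to AEN, DDB2, EI24, FDXR, PLK2 and SESN1. Of the 11 members with a window that were at least 2-fold higher in blebbishields or spheres than in RT4P live, 3 held a half-site, and so did 3 of the other 17. These 3, AEN, DDB2 and PLK2, are shown because they carried the motif letters and also had high signal in blebbishields, and capitals mark the half-site. MDM2 was added after the values were seen, because its inner promoter holds a pair of half-sites of 20 letters with 2 mismatches, marked in capitals. Such a pair with at most 2 mismatches stood in 0.649% of all windows, and among the members in 1 window each of AEN and DDB2 and in 2 overlapping windows of MDM2. A match of letters is a description and not evidence of binding. Build GRCh38.p14, each window 5′ to 3′ on the gene's strand:
AEN promoter, chr15:88621090-88621389, plus strand: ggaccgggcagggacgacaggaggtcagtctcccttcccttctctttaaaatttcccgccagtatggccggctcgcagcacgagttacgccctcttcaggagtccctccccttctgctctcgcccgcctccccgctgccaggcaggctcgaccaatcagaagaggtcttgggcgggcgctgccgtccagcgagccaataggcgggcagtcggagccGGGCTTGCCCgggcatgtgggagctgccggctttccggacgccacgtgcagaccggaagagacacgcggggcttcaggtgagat
DDB2 promoter, chr11:47214724-47215023, plus strand: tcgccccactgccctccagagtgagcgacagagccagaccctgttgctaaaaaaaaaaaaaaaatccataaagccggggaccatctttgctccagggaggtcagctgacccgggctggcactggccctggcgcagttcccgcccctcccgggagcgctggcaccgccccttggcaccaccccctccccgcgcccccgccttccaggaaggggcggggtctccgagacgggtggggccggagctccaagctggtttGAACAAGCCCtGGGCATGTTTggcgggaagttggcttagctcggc
PLK2 promoter, chr5:58460037-58460336, minus strand: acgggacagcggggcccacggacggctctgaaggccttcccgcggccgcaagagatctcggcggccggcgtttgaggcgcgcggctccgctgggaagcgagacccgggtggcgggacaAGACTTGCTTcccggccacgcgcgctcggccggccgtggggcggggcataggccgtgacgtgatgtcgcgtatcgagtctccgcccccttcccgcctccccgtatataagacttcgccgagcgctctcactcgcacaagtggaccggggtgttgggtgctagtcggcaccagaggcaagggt
MDM2 inner promoter, chr12:68808767-68809066, plus strand: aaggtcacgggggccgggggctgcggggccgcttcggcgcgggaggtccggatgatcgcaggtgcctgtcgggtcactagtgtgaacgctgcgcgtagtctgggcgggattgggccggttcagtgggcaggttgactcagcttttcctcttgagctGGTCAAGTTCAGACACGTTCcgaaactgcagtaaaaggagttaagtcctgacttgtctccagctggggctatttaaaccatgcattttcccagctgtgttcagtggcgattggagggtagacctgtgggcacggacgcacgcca
In DDB2 the pair of half-sites lay after the start, at positions 5 and 16, with a single base between them. The DDB2 site of 20 letters counted above is another stretch, which began at position -5 with 1 mismatch. It takes in the first marked half-site and is not marked as a whole. The AEN half-site began at position -34, the PLK2 half-site at -132 and the MDM2 pair at -94, counted with the first transcribed base as 0.

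Signals below are normalized log2 values, background-corrected with an offset of 16 and quantile normalized over the 6 arrays. The array of blebbishields was dimmer than the rest. It detected 14749 probes with a mean raw signal of 263.2, against 15788 to 17593 probes and mean signals of 349.5 to 389.2 on the other 5. Of the members, 27 or 28 were detected on each array, and 26 on all 6. Urothelial and epithelial markers fitted the label, with 16 of 16 detected on every array. Of 20 leukocyte markers, 7 had a kept probe and 3 to 7 were detected per array, with PBSHMS at 3. PTPRC, carried by leukocytes in general, and CD3E, a T cell marker, were detected on no array. The summed signal of the 7 ran between 652.5 in RT4v6 and 3532.0 in PBSHMS on the linear scale, most of it LCP1. RT4P live, which was not fused with blood cells, had 3355.1. Of 8 stroma markers, VIM and VWF had a kept probe, and VWF was 2.58-fold higher in blebbishields and at least 3.42-fold lower in PBSHMS than in RT4P live. The urothelial marker KRT20 was 8.57-fold higher in blebbishields and 12.1-fold in spheres. Of the 16 urothelial markers, 1 was at least 2-fold higher and 1 lower in blebbishields than in RT4P live (7.09% and 4.77% of all genes). The counts were 2 and 1 in spheres (3.0% and 3.31%) and 5 and 1 in RT4P-BSE2 (1.3% and 0.271%). They were 4 and 0 in RT4v6 (1.15% and 2.41%), and 5 and 0 in PBSHMS (1.8% and 2.04%). The part of these markers in the members' values was not tested. An array of bulk RNA cannot tell apart fewer cells of a type and less RNA per cell.

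After quantile normalization, most of the p53 genes stood higher in blebbishields than in the live parental cells. Of 29 members measured, 12 were at least 2-fold higher (7.09% of all 13852 genes measured), 0 were at least 2-fold lower (4.77% of all genes) and 17 differed by less. The median difference over the members was 0.90 on the log2 scale, against 0.00 over all genes, and 22 of 29 members lay above 0. Those 12 were MDM2, PPM1D, CDKN1A, GADD45A, PLK2, GDF15, SESN2, DDB2, RRM2B, AEN, TRIAP1 and ZMAT3, and each of the 6 role groups held at least 1 of them. As a gauge of spread, the SD between 2 probes of the same gene was 0.40 in this comparison. Transcript differences add to that gauge, which says nothing of the error between cultures.

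The count in blebbishields depends on how the dim array is scaled. Without normalization between arrays, the median of all genes in blebbishields minus RT4P live was -0.70, and with arrays shifted to equal medians it was -0.56. On those scales 3 members (GDF15, MDM2 and ZMAT3) and 4 members (these and RRM2B) were at least 2-fold higher, while BTG2, CCNG1, PERP and PHLDA3 were at least 2-fold lower on both. Of all genes, 3.1% were higher and 30.6% lower without normalization, and 3.48% and 22.7% with equal medians. On both, 5 of the 26 members detected in blebbishields and RT4P live turned to values below 0, DRAM1, EPHA2, IER5, SESN1 and TP53INP1, and none of these was among the 12. Relative to the median of all genes the members' median was 0.81 on both scales, close to that after quantile normalization. These scales differ only by a constant per array, so their agreement with each other is no separate check. Without background correction GADD45A and SESN2, both at 0.99, and PLK2 fell short of 2-fold. Among all genes past 2-fold, higher genes made up 59.8% after quantile normalization, 13.3% with equal medians and 9.2% without normalization.

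**Figure D1:**
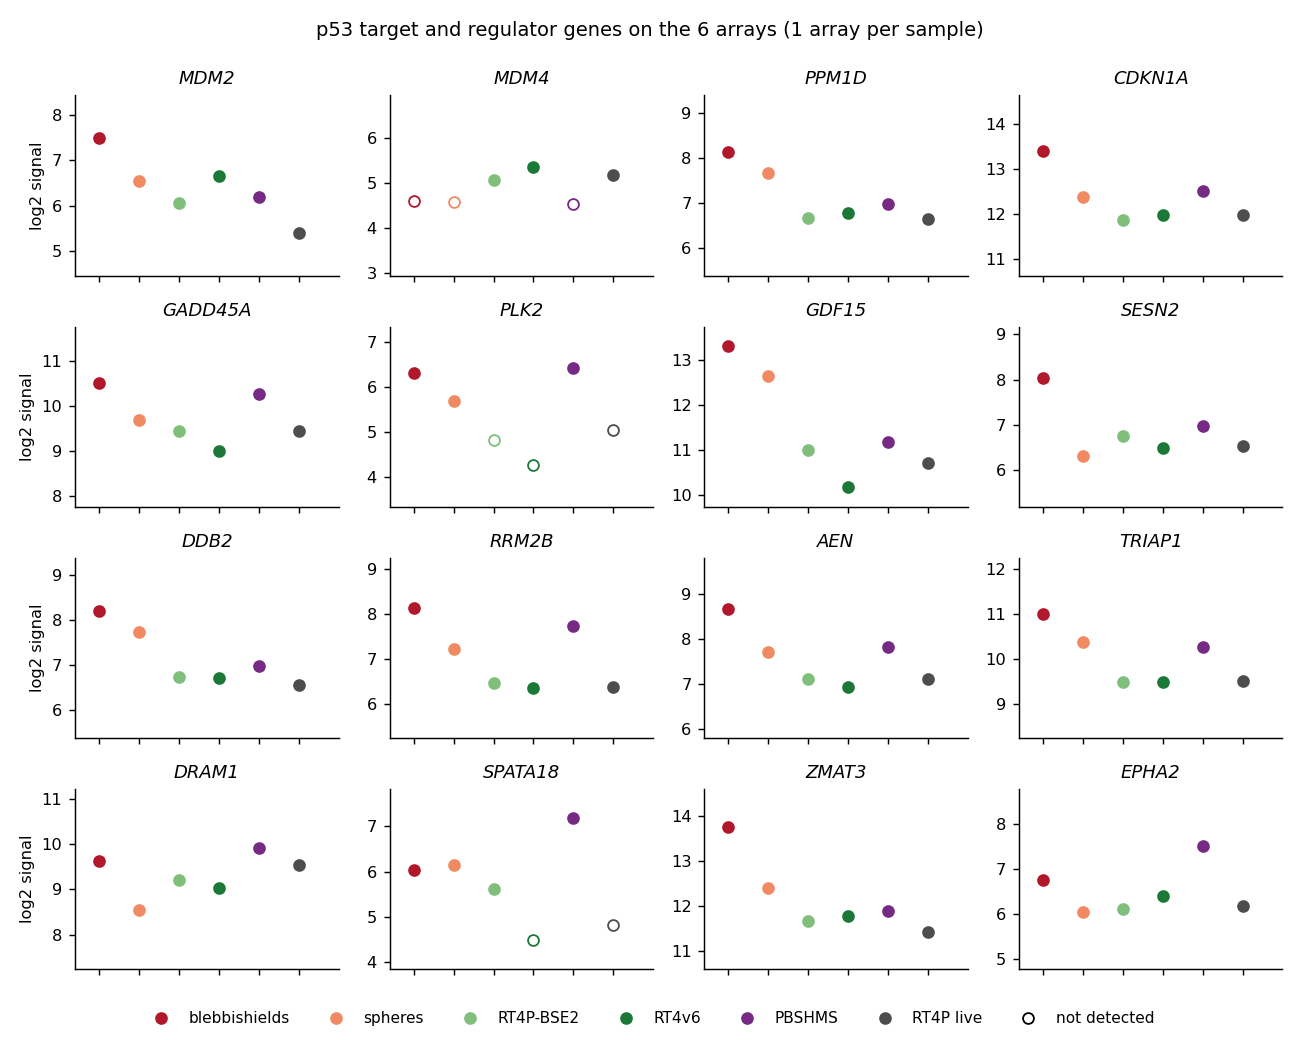
Normalized log2 signal (vertical axis) of the 16 members given on every array (MDM4 and those with a 2-fold difference in any comparison), on the 6 arrays from blebbishields at left to RT4P live at right, 1 point per array, open where the probe was not detected. GDF15, PPM1D, DDB2, TRIAP1 and ZMAT3 lie higher on both post-apoptotic arrays than on all 4 live arrays, and SPATA18, PLK2, EPHA2 and DRAM1 are highest in PBSHMS. A second ZMAT3 probe, not drawn, read lower in spheres than in PBSHMS.

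The feedback genes that restrain p53 came first by role. MDM2 had log2 signals of 7.50 in blebbishields, 6.55 in spheres, 6.07 in RT4P-BSE2, 6.65 in RT4v6, 6.19 in PBSHMS and 5.38 in RT4P live. Blebbishields were the highest of the 6 and RT4P live the lowest, a difference of 4.35-fold, and spheres were 2.24-fold above RT4P live. The MDM2 probe was dim, with raw signals of 181.4 in blebbishields, 192.2 in spheres and 126.0 in RT4P live, and its size follows the background step. Without background correction the MDM2 log2 difference from RT4P live was 1.11 in blebbishields and 0.51 in spheres. The other 3 MDM2 probes were detected on no array.

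PPM1D, a phosphatase that removes activating phosphates from p53 and its kinases, read 8.13 in blebbishields, 7.66 in spheres, 6.65 in RT4P-BSE2, 6.77 in RT4v6, 6.97 in PBSHMS and 6.63 in RT4P live. Both post-apoptotic arrays lay above all 4 live arrays, 2.83-fold above RT4P live in blebbishields and 2.03-fold in spheres. MDM4, the MDM2 relative that blocks p53 without degrading it, was detected only on the live arrays RT4P-BSE2, RT4v6 and RT4P live, at 5.07, 5.36 and 5.18. On blebbishields, spheres and PBSHMS its values of 4.60, 4.59 and 4.54 were not above background, so that only bounds can be given there. Between arrays that detected it, MDM4 differed from RT4P live by -0.11 in RT4P-BSE2 and 0.18 in RT4v6. CCNG1, which encodes cyclin G1 and acts through MDM2, did not share the direction of MDM2 and PPM1D. It had log2 differences from RT4P live of -0.37 in blebbishields and -0.86 in spheres, and its highest value was 11.50 in RT4P live.

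Among growth arrest genes, CDKN1A, which encodes the cyclin-dependent kinase inhibitor p21, read 13.40 in blebbishields, 12.38 in spheres, 11.89 in RT4P-BSE2, 11.99 in RT4v6, 12.52 in PBSHMS and 11.99 in RT4P live. Its blebbishield signal was 2.65-fold above RT4P live, while spheres (0.39 above RT4P live on the log2 scale) lay below PBSHMS. A second CDKN1A probe was detected on the blebbishield array alone, at 8.35, against values of 4.60 in spheres and 4.47 in RT4P live that were not above background. The raw signal of that probe was 271.0 in blebbishields, 107.8 in spheres and 99.8 in RT4P live.

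GADD45A, a stress sensor that binds PCNA and p21, read 10.52 in blebbishields, 9.69 in spheres, 9.45 in RT4P-BSE2, 9.01 in RT4v6, 10.26 in PBSHMS and 9.45 in RT4P live. Blebbishields were 2.10-fold and PBSHMS 0.81 on the log2 scale above RT4P live, and a second GADD45A probe gave 0.98 and 0.86. PLK2, a polo-like kinase of the stress response whose promoter is shown above, was detected at 6.31 in blebbishields, 5.70 in spheres and 6.42 in PBSHMS. It was not detected in RT4P-BSE2, RT4v6 or RT4P live, so the folds over RT4P live are bounds of at least 2.30-fold in blebbishields and at least 2.48-fold in PBSHMS. These sizes rest on the background step, and without it the log2 differences were 0.48 and 0.54, short of 2-fold. In blebbishields PLK2 was also short of it with equal medians, at 0.69. The antiproliferative pair BTG1 and BTG2 differed from RT4P live by -0.06 and -0.54 in blebbishields and by 0.45 and -0.58 in spheres. BTG2 was the single member lower on both post-apoptotic arrays than on all 4 live arrays, a pattern held by 12.2% of all genes.

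GDF15, a secreted cytokine of the stress response, had the largest difference of any member in blebbishields and in spheres. It read 13.30 in blebbishields, 12.64 in spheres, 10.996 in RT4P-BSE2, 10.17 in RT4v6, 11.17 in PBSHMS and 10.70 in RT4P live. The blebbishield value was 6.04-fold and the sphere value 3.82-fold above RT4P live. Its raw signals showed the same order before any normalization, at 7606.7 in blebbishields, 7072.4 in spheres and 1931.7 in RT4P live.

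The sestrins, which restrain mTORC1 when nutrients are short or the cell is stressed, split. SESN2 read 8.04 in blebbishields, 6.32 in spheres, 6.75 in RT4P-BSE2, 6.48 in RT4v6, 6.97 in PBSHMS and 6.53 in RT4P live, so the blebbishield array stood alone, 2.83-fold above RT4P live, and spheres were the lowest of the 6. SESN1 differed from RT4P live by 0.05 in blebbishields and -0.12 in spheres. Blebbishields also had high signal for targets of ATF4 and CHOP, the factors of the integrated stress response, to which GDF15 and SESN2 are known to respond as well. Of 17 such genes 11 were at least 2-fold higher and 0 lower in blebbishields than in RT4P live, with a median of 1.30, and STC2 (a bound of 3.62) and DDIT3 (2.45) differed most. With equal medians 6 and without normalization 3 of the 17 were higher and 0 lower, where 3.48% and 3.1% of all genes were higher. In spheres 5 of 16 were higher and 1 lower, with a median of 0.28. Their part in the values of GDF15 and SESN2 was not tested. TP53I3, a quinone oxidoreductase, was 0.84 above RT4P live in blebbishields and 0.85 in spheres. The blebbishield difference of TP53I3 was 0.14 with equal medians and 0.003 without normalization.

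After quantile normalization, all 4 members of the repair group lay above RT4P live in blebbishields. Their log2 differences ran between 0.78 and 1.75, with a median of 1.29. All 4 stayed above 0 on the other scales, but XPC and POLH only by 0.27 and 0.25 with equal medians. Without normalization XPC and POLH were at 0.13 and 0.11. DDB2, which recognises DNA lesions for nucleotide excision repair and carries the half-site pair shown above, read 8.20 in blebbishields, 7.73 in spheres, 6.73 in RT4P-BSE2, 6.71 in RT4v6, 6.97 in PBSHMS and 6.55 in RT4P live. The post-apoptotic and live arrays did not overlap, and DDB2 was 3.14-fold above RT4P live in blebbishields and 2.26-fold in spheres. RRM2B, the p53-inducible subunit of ribonucleotide reductase that supplies nucleotides for repair, read 8.13 in blebbishields, 7.22 in spheres, 6.46 in RT4P-BSE2, 6.35 in RT4v6, 7.73 in PBSHMS and 6.37 in RT4P live. Blebbishields were 3.37-fold and PBSHMS 2.56-fold above RT4P live, and a second RRM2B probe gave smaller log2 differences of 1.01 and 0.42. XPC, which works beside DDB2, and POLH, a polymerase that copies past cisplatin adducts, were 0.94 and 0.78 above RT4P live in blebbishields and 0.18 and 0.47 in spheres.

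In the group for death, survival and autophagy, 2 of 8 measured members were at least 2-fold higher in blebbishields. AEN, a nuclease of apoptotic cells, read 8.67 in blebbishields, 7.73 in spheres, 7.13 in RT4P-BSE2, 6.95 in RT4v6, 7.84 in PBSHMS and 7.12 in RT4P live, 2.92-fold higher in blebbishields than in RT4P live. TRIAP1, a small survival protein of mitochondria, read 10.98 in blebbishields, 10.37 in spheres, 9.49 in RT4P-BSE2, 9.49 in RT4v6, 10.26 in PBSHMS and 9.50 in RT4P live. Its blebbishield value was 2.80-fold above RT4P live, and PBSHMS read slightly below spheres and above the other live arrays. PERP, a membrane protein of desmosomes, and PHLDA3, an inhibitor of AKT, went the other way, by -0.83 and -0.44 in blebbishields.

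DRAM1, a lysosomal protein of p53-driven autophagy, was lowest in spheres. It read 9.64 in blebbishields, 8.54 in spheres, 9.20 in RT4P-BSE2, 9.04 in RT4v6, 9.92 in PBSHMS and 9.54 in RT4P live. Spheres were 2.00-fold below RT4P live, which is at the edge of the threshold, and 2.14-fold below blebbishields. The difference from blebbishields depends on the scaling of that array, and was -0.35 with equal medians and -0.19 without normalization. SPATA18, which takes part in the clearance of damaged mitochondria, was detected at 6.04 in blebbishields, 6.15 in spheres, 5.60 in RT4P-BSE2 and 7.19 in PBSHMS but not in RT4v6 or RT4P live. It was at least 2.05-fold higher in spheres and at least 4.22-fold higher in PBSHMS than in RT4P live, but without background correction its log2 differences were 0.40 and 0.98. By their brighter probes EI24 and TP53INP1 stayed within 0.61 of RT4P live in every comparison with it. A second TP53INP1 probe differed by 0.82 in blebbishields.

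ZMAT3, an RNA-binding zinc finger protein of the p53 tumour suppressor program, read 13.76 in blebbishields, 12.39 in spheres, 11.66 in RT4P-BSE2, 11.77 in RT4v6, 11.88 in PBSHMS and 11.43 in RT4P live. Blebbishields were 5.03-fold above RT4P live and spheres 0.96 on the log2 scale, just under 2-fold. A second ZMAT3 probe differed by 1.45 in blebbishields, 0.49 in spheres and 1.20 in PBSHMS, where the first probe gave 0.45. IER5, a cofactor of the heat shock factor HSF1, and KIAA0247, now SUSD6, were 0.29 and 0.90 above RT4P live in blebbishields, although IER5 was -0.54 without normalization between arrays. EPHA2, a receptor tyrosine kinase for ephrins, read 6.76 in blebbishields, 6.04 in spheres, 6.11 in RT4P-BSE2, 6.40 in RT4v6, 7.51 in PBSHMS and 6.19 in RT4P live, highest in PBSHMS. The 3 members without a kept probe were FDXR, PLK3 and TP53I11, whose lowest detection p-values were 0.01429, 0.18831 and 0.01299, just outside the limit for FDXR and TP53I11. MDM4, at 0.0039, was the member nearest to it on the inside.

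**Figure D2:**
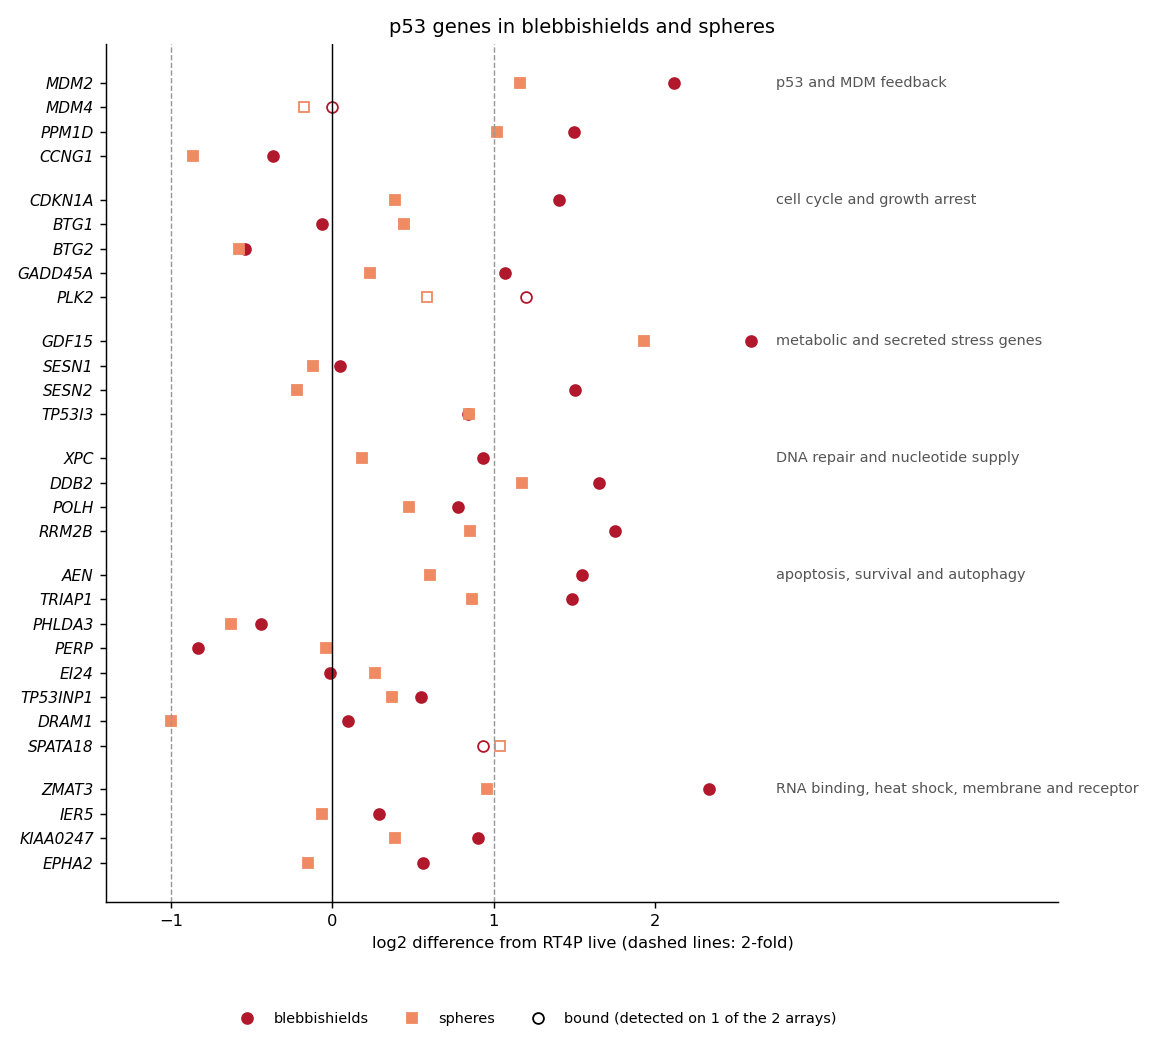
Log2 difference from RT4P live (horizontal axis) of each measured member, by role, in blebbishields (circles) and spheres (squares), with open marks for bounds and dashed lines at 2-fold. GDF15, ZMAT3 and MDM2 lie farthest right in blebbishields at 2.60, 2.33 and 2.12, and DRAM1 lies farthest left in spheres, at the 2-fold line.

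In spheres the count of genes at least 2-fold above RT4P live was below that in blebbishields after quantile normalization, but not with equal medians or without normalization. Against RT4P live, 5 of 29 members (MDM2, PPM1D, GDF15, DDB2 and SPATA18) were at least 2-fold higher, with 3.0% of all genes, and DRAM1 was lower, with 3.31%. The members' median was 0.39, against 0.00 over all genes, and the probe SD was 0.26. With equal medians and without normalization 5 were higher in spheres as well, against 4 and 3 in blebbishields, so the order of the counts turned. Without background correction GDF15 alone stayed past 2-fold in spheres, with DDB2 at 0.75, PPM1D at 0.65, MDM2 at 0.51 and SPATA18 at 0.40. GDF15 was also alone with an offset of 50 and in the authors' processed values. Of all genes, 1.19%, 1.78% and 1.23% were higher under these 3 settings. Set directly against blebbishields, 0 of 28 members were at least 2-fold higher in spheres (3.01% of all genes) and 4 were lower (5.99%), namely SESN2 by 3.30-fold, ZMAT3 by 2.59-fold, DRAM1 by 2.14-fold and CDKN1A by 2.03-fold. The median was -0.50 and the probe SD 0.34, and 23 of 28 members lay below 0. This direction turned with the scaling. Without normalization between arrays the members' median was 0.37 and that of all genes 0.76, and with equal medians the values were 0.20 and 0.59. Relative to all genes the members' median was -0.39 on both scales, which differ only by a constant per array. BTG1, EI24 and PERP were then at least 2-fold higher in spheres without normalization, and BTG1 and PERP with equal medians. Of all genes, 32.7% were higher and 1.44% lower without normalization, and 22.5% and 2.0% with equal medians. The share of higher genes among all genes past 2-fold was 33.5% after quantile normalization, 91.8% with equal medians and 95.8% without normalization. In spheres against RT4P live it was 47.5%, 55.7% and 59.0%. These comparisons share arrays, so their values are given side by side and are not separate observations.

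Both post-apoptotic arrays lay above all 4 live arrays for 6 of 29 members, DDB2, GDF15, PPM1D, TP53I3, TRIAP1 and ZMAT3, while 14.8% of all genes had that order. The place of TP53I3 depends on the scaling, as its raw signal of 440.2 in blebbishields lay below the 445.1 to 526.0 of the live arrays. That of ZMAT3 depends on the probe, as its second probe, detected on all arrays, read 9.16 in spheres and 9.86 in PBSHMS. Over the 26 members detected on all arrays, 16 were highest in blebbishields, where 23.8% of all genes were highest, but 5 (with 4.52% of all genes) when arrays were not normalized to each other. PBSHMS was highest for 4 (16.1% of all genes), DRAM1, EI24, EPHA2 and TP53INP1. Spheres were highest for BTG1 and TP53I3 (19.2%), RT4P-BSE2 for BTG2 and PHLDA3 (9.99%), RT4v6 for PERP (18.5%) and RT4P live for CCNG1 (12.5%).

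**Figure D3:**
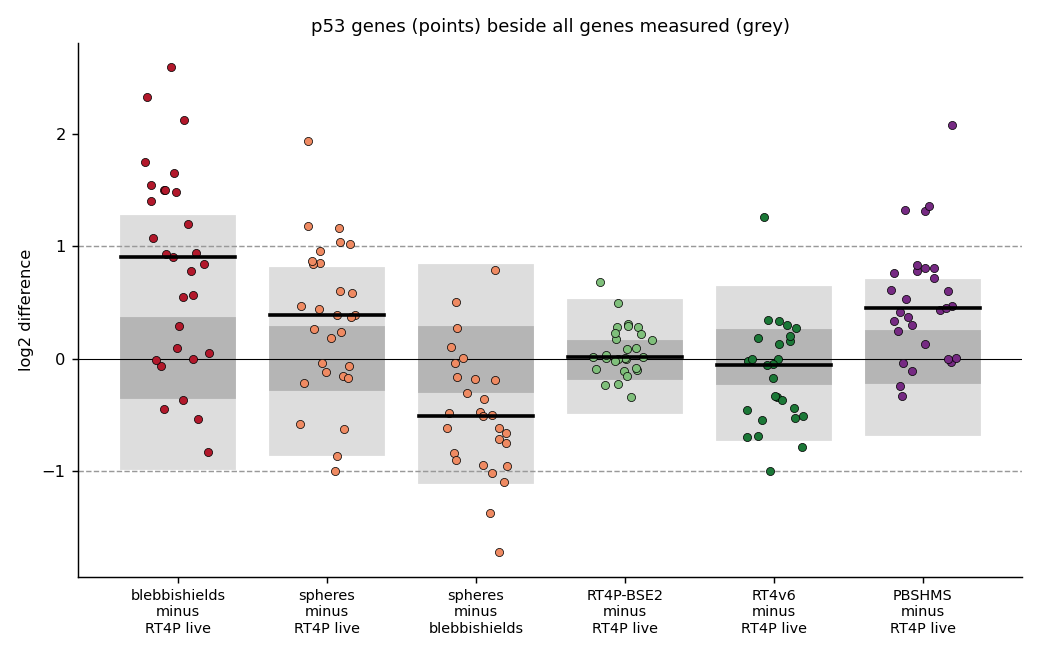
Log2 differences (vertical axis) of the measured members in the 6 comparisons, 1 point per gene, with black bars at the members' medians, dark grey from the lower to the upper quartile of all genes measured, light grey from the 5th to the 95th percentile and dashed lines at 2-fold. The members' medians were 0.90 in blebbishields, 0.39 in spheres and 0.45 in PBSHMS against RT4P live, and 0.02 in RT4P-BSE2 and -0.06 in RT4v6.

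The live lines differed less, and PBSHMS stood at the high end. Against RT4P live, 4 of 29 members were at least 2-fold higher in PBSHMS (1.8% of all genes) and 0 lower (2.04%), with a median of 0.45, against 0.00 over all genes, and a probe SD of 0.23. They were SPATA18, PLK2, RRM2B at 1.36 and EPHA2 at 1.32 on the log2 scale. The count fell to 0 without background correction (0.559% of all genes), and to SPATA18 alone in the authors' processed values (0.596%). A further group of genes lay just under, among them XPC at 0.83, GADD45A at 0.81, MDM2 at 0.80, KIAA0247 at 0.78 and TRIAP1 at 0.76. Of the 26 members detected on every array, PBSHMS was the highest of the 4 live arrays for 18 and the lowest for 0, where all genes gave 28.0% and 26.6%. The count of 18 was the same without normalization between arrays, with equal medians and in the authors' processed values. All genes gave 18.0%, 20.3% and 27.9% there. Among all genes past 2-fold in PBSHMS, higher genes made up 46.9%, 37.1% with equal medians and 31.1% without normalization.

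RT4v6 stood at the low end. RT4v6 was the lowest of the 4 live arrays for 16 of the 26 members, where 26.2% of all genes were lowest, and the highest for MDM2, PERP and TP53I3. Against RT4P live, 1 of 27 members was at least 2-fold higher (1.15% of all genes), MDM2 at 2.40-fold, and 0 were lower (2.41%), with SESN1 at -0.995, just short of the threshold. The members' median was -0.06, against 0.02 over all genes, and the probe SD 0.24. MDM2 in RT4v6 had a difference of 0.57 without background correction. CCNG1 was -0.78, BTG1 -0.70, IER5 -0.69 and GDF15 -0.53 from RT4P live in RT4v6.

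RT4P-BSE2, which has been through the blebbishield program, lay close to its parent. Of 28 members 0 were at least 2-fold higher (1.3% of all genes) and 0 lower (0.271%), the median was 0.02, and differences ran between -0.34 for DRAM1 and 0.68 for MDM2, with a probe SD of 0.22. Of the genes with high signal in blebbishields, CDKN1A was at -0.10 and AEN at 0.01 in RT4P-BSE2, while PLK2 was not detected on either array. The 0.68 of MDM2 came from a dim probe, with raw signals of 153.1 in RT4P-BSE2 and 126.0 in RT4P live.

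**Figure D4:**
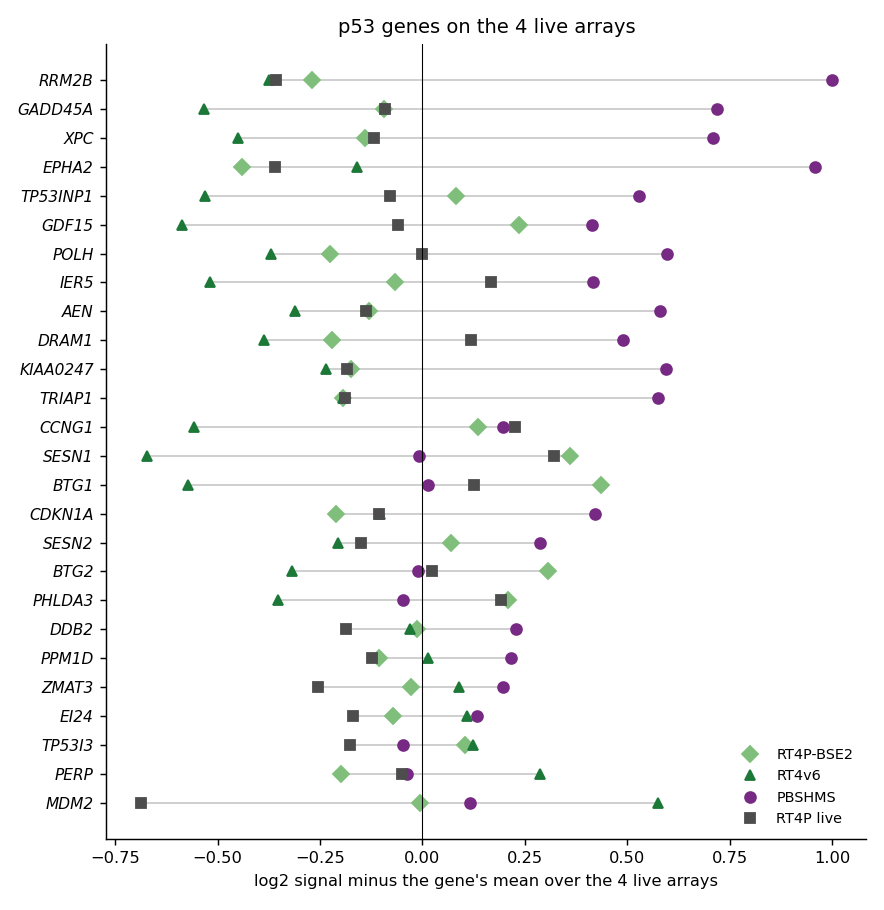
Log2 signal minus the gene's mean over the 4 live arrays (horizontal axis) for the 26 members detected on all 6 arrays, with diamonds for RT4P-BSE2, triangles for RT4v6, circles for PBSHMS and squares for RT4P live. The PBSHMS circle is rightmost for 18 genes and the RT4v6 triangle leftmost for 16.

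Other genes of the pathway, outside the member list, were counted in the same way. The shares of all genes past 2-fold, to set beside these counts after quantile normalization, are 7.09% higher and 4.77% lower in blebbishields. They are 3.0% and 3.31% in spheres, 1.3% and 0.271% in RT4P-BSE2, 1.15% and 2.41% in RT4v6, and 1.8% and 2.04% in PBSHMS. In blebbishields they are 3.48% and 22.7% with equal medians, and 3.1% and 30.6% without normalization. In spheres they are 3.62% and 2.88%, and 3.86% and 2.68%, on those scales. Of the kinases, ligases and cofactors that act on p53, 0 of 11 measured in blebbishields and 0 of 12 in spheres differed at least 2-fold from RT4P live, and 0 of 11 in each derived line, but 4 were lower in blebbishields without normalization between arrays. Among other p53 targets that act in apoptosis, 1 of 12 was higher and 2 were lower in blebbishields, with a median of 0.48. With equal medians 1 was higher and 2 lower and the median was -0.14, and without normalization 1 and 3 with a median of -0.28. LRDD, now PIDD1, was higher by 2.15, and CASP1 lower, with a bound of -2.33. In spheres 0 of 12 were higher and 2 lower, CASP1 at -1.81 and BID at -1.02. In PBSHMS FAS was higher by 1.05 and CASP1 lower, at -2.33, and the list's median was 0.67, while in RT4P-BSE2 and RT4v6 0 differed that far.

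Other p53 targets in metabolism and further roles included 4 of 22 at least 2-fold higher and 0 lower in blebbishields, with CYFIP2 at 1.86 and GLS2, a mitochondrial glutaminase, at 1.82, and a median of 0.13. Equal medians gave 2 higher and 3 lower there, and no normalization 2 and 5, where 22.7% and 30.6% of all genes were lower. In spheres 2 of 22 were higher, IGFBP3 at 1.75 and THBS1 at 1.36, in PBSHMS 4, led by TRIM22 at 1.499 and SLC12A4 at 1.196, in RT4P-BSE2 1, TRIM22 at 2.43, and in RT4v6 0, with 0 lower in any of them. The 22 cell cycle genes that p53 is known to lower through p21 and the DREAM complex had a median of -0.17 in blebbishields, where KIF20A at -2.53 and CCNB1 at -1.41 were at least 2-fold lower. With equal medians 9 and without normalization 11 of the 22 were lower in blebbishields, where 22.7% and 30.6% of all genes were lower. In spheres the median was -0.60 and 6 of 22 were lower, KIF20A at -3.21 and CENPA at -2.65 the most, and 5 on both other scales. None of the 22 was higher in either, and 0 of 22 passed 2-fold in RT4P-BSE2, RT4v6 or PBSHMS.

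Immediate early genes, which cells switch on within minutes of a stimulus, were also high on the blebbishield array. Of 15 measured, 6 were at least 2-fold higher and 0 lower in blebbishields than in RT4P live, with a median of 0.57, and FOSB had a bound of 4.85 and FOS a difference of 3.39. The share of all genes was 7.09% higher and 4.77% lower, and on both other scales 5 of the 15 were higher and 2 lower. There the share of all genes was 3.48% higher and 22.7% lower with equal medians, and 3.1% and 30.6% without normalization. In spheres 1 was higher and 3 were lower, with a median of 0.20. Some members, such as GADD45A, are known to respond to those stimuli too, and the part of these genes in the members' values was not tested.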

How the data were processed

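RNA levels were read on 6 Illumina bead arrays, 1 per sample, and samples were grouped by their labels. The authors deposited non-normalized intensity beside a detection p-value for every probe on each array, per the file headers, and a second table of processed intensity, which the values show to be linear with equal quantiles. The submitters' processing notes name GenomeStudio (version not given in the sources used here). No replicates exist, so no test was run, and precision is limited by the number of arrays.

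In R 4.3.3, neqc of limma 3.58.1 corrected the background (the detection p-values gave the level of the negative controls), with 16 as offset, followed by quantile normalization and log2. A gene was represented by its kept probe with the highest mean. It entered a comparison when detected on at least 1 of the 2 arrays. Where it was detected on 1 array only, the dim value was raised to the lowest detected value of its array, and the fold is a bound. Bounds that turned a difference round were set to 0. A call is a difference of at least 2-fold. All genes measured were treated alike as background, under the names of the table, and KIAA0247 was matched to its current symbol through RefSeq. Promoter windows came from RefSeq, build GRCh38.p14.

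Members at 2-fold in any comparison, and CDKN1A, MDM2, MDM4, PPM1D and GDF15, were given on every array, and other lists by counts with at most 2 genes named. Some genes that the rule or lists would take are not reported here, and those genes are not in the list counts. The members and lists were chosen with earlier results of these data known. There were 8 alternatives, and 1 more was chosen after seeing the data. The main normalization was also run on simulated arrays. The alternative scalings, the alternative background settings and the promoter search were not tested on simulated data.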

Additional observations from a re-analysis of the deposited data

How the results depend on the processing

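No paired analysis was possible because each group had 1 array, and for the same reason no replicate could be left out. Over 9 alternatives, the 92 differences of the members given on every array were recomputed 828 times in all, 693 of them moved by less than the probe SD, and 0 of those past 2-fold changed sign. GDF15 in blebbishields and in spheres, and MDM2 and ZMAT3 in blebbishields, stayed at least 2-fold above RT4P live in 9 of 9. With arrays shifted to equal medians, blebbishields had 4 members higher and 4 lower with a median of 0.25, spheres 0 lower, and spheres against blebbishields 2 higher and 1 lower with a median of 0.20, while 4 lay below all live arrays on both post-apoptotic arrays. Without normalization between arrays these were 3, 4 and 0.11 in blebbishields, 0 lower in spheres, 3, 0 and 0.37 in spheres against blebbishields, 1 lower in RT4v6, and 3 below all live arrays. The shares of all genes past 2-fold on these scales are given above for blebbishields and spheres. In RT4v6 without normalization 2.74% of all genes were lower. An alternative chosen after seeing the data subtracted the all-gene median from the values without normalization. It gave 13 higher (6.85% of all genes) and 0 lower (5.28%) in blebbishields, 0 lower (3.23%) in spheres and 1 lower (2.72%) in RT4v6. Without background correction the blebbishield median was 0.50, and 1 member was higher (1.19% of all genes) and 0 lower (1.4%) in spheres. In RT4v6 (0.345%) and PBSHMS (0.559%) 0 were then higher. An offset of 50 gave 1 higher (1.78% of all genes) and 0 lower (2.0%) in spheres and 0 higher (0.535%) in RT4v6. The authors' processed values gave 1 higher (1.23% of all genes) and 0 lower (1.42%) in spheres, and 2 lower (3.02%) in spheres against blebbishields. They gave 0 higher (0.366%) in RT4v6 and 1 higher (0.596%) in PBSHMS. Apart from the scaling of the dim blebbishield array, the cause of these shifts was not tested. Dim probes, such as those of MDM2, PLK2 and SPATA18, lie near background, which limits the size of their differences.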
